A study of Mus musculus with 16 samples.

Results

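The knockout effect in brown fat minus the knockout effect in white fat was measured from all 16 of the 16 arrays of a mouse series on the glucocorticoid receptor, with each gene's effect taken as knockout minus control within a tissue. The 4 groups were white and brown adipose tissue from wild-type control males and from males with an adipose-specific knockout of the receptor, with 4 arrays in each group, which the design text calls biological replicates. The promoter that drives the deletion, the alleles carried by the controls, the age of the mice, their hormone state and any treatment were not given in the sources used here. RNA was labelled with Cy3 and hybridised to 1-colour Agilent arrays, on which each probe's brightness stands for the amount of its transcript. The comparison asks whether loss of the receptor changed the same genes by the same amount in the 2 tissues.

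The glucocorticoid receptor, encoded by Nr3c1, is a hormone-activated transcription factor that binds DNA at inverted repeats, raises some genes directly and lowers others, many of them by interfering with inflammatory factors. In white fat, glucocorticoids are known to favour fat cell differentiation, lipid turnover and the secretion of adipokines. In brown fat they are known to restrain thermogenesis, the burning of lipid for heat through the uncoupling protein Ucp1. The difference of effects is positive where the knockout value is higher in brown than in white fat relative to each tissue's controls, and negative where it is lower.

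A level is the log2 of the processed intensity after subtraction of its array's 75th percentile, and effects and differences are on the same log2 scale, where 1 unit is a 2-fold change. On every array, 67.3% to 77.0% of 43379 gene spots exceeded background clearly by the scanner software's own flag. In 9 of the 24 possible pairs of same-group arrays, the difference was smaller than the error stated for each spot, with ratios of difference to error of 0.376 to 0.658, against 1.10 to 4.28 in the other 15 pairs. Such arrays were averaged and counted as 1 sample, which left 9 samples: white control arrays 1 and 4, white control arrays 2 and 3, white knockout array 1, white knockout arrays 2 to 4, brown control array 1, brown control arrays 2 and 3, brown control array 4, brown knockout array 1, and brown knockout arrays 2 to 4. Sample values below follow this order. In both tissues the knockout sample of arrays 2 to 4 stood further from the controls than array 1: the standard deviation of its effects across genes was 1.19 in white and 0.996 in brown fat, against 0.793 and 0.616 for array 1. The control samples lay between 0.270 and 0.492 from their group mean by the same measure.

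Nr3c1 was lower in the knockout samples of both tissues, by nearly the same amount. Its level was 2.42 and 2.14 in the white control samples, 1.50 and 1.27 in white knockout, 2.46, 2.62 and 2.29 in brown control, and 1.50 and 1.69 in brown knockout. The knockout arrays lay below the control arrays without overlap in each tissue. The effect was -0.90 ± 0.23 (SE, 2 control and 2 knockout samples) in white and -0.85 ± 0.21 (SE, 3 control and 2 knockout samples) in brown fat, and the difference of effects was 0.04 ± 0.31 with a 95% interval of -0.69 to 0.77. The other 3 probes of the gene gave differences of 0.64, -0.41 and 0.29. The adipose markers that the tissue labels imply were present, with Adipoq, Fabp4 and Plin1 among the 24 of 24 adipocyte genes measured in all 4 groups, and skeletal muscle genes were bright in every brown and dim in every white group.

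The knockout effects of the 2 tissues pointed the same way for 72.8% of the 15450 genes tested. Across these genes, the Pearson correlation of the brown with the white effect was 0.54 and Spearman's rho 0.55, a description over genes, which share the arrays of each tissue and are not independent replicates. No array was common to both effects. The 14499 genes that were well above background on at least 2 arrays of every group gave 0.57, 0.57 and 73.4%. Agreement was lower among dim genes, with a correlation of 0.428 and the same sign in 63.8% in the dimmest of 4 equal groups of genes, against 0.607 and 78.7% in the brightest. The effects were of like size in the 2 tissues, with standard deviations across genes of 0.725 in white and 0.715 in brown fat, and the standard deviation of their difference was 0.693. An effect larger than 2-fold was seen for 14.1% of genes in white and 9.86% in brown fat. Of these, 473 genes were more than 2-fold higher in both tissues and 161 more than 2-fold lower in both, while 52 were more than 2-fold lower in brown and higher in white fat and 4 the reverse.

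**Figure D1:**
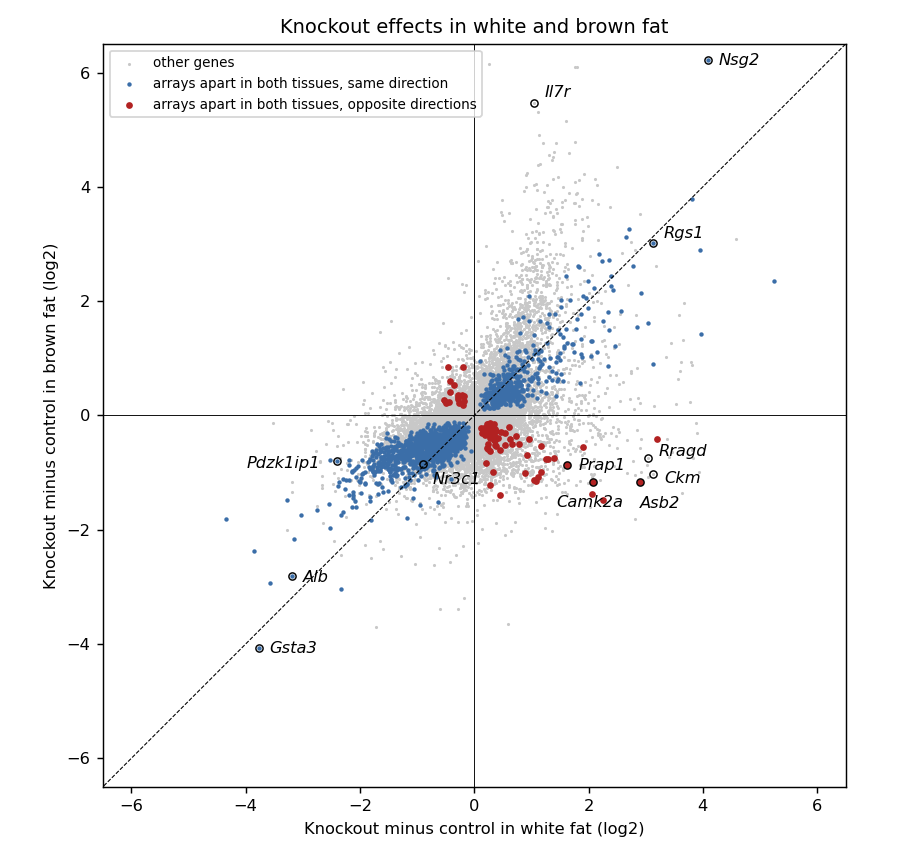
Each point is 1 of the 15450 genes, with its knockout minus control effect (log2) in white fat on the horizontal axis and in brown fat on the vertical axis; the dashed line marks equal effects. Blue points are the 1506 genes whose knockout arrays lay beyond all control arrays in the same direction in both tissues, and red points the 83 genes in opposite directions, of which 66 were lower in brown and higher in white knockout.

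The 4 knockout arrays lay beyond the 4 control arrays in both tissues, in the same direction, for 1506 genes. The 4 arrays of a group were counted here as fewer samples, because some differed by less than the stated error. Separation of arrays is therefore a description and not a test. Both tissues were higher in knockout for 433 genes (2.8% of the 15450) and both lower for 1073 (6.94%), against 83 (0.537%) in opposite directions. Among genes lower in both, Gsta3, a glutathione transferase, had levels of 5.69 and 4.91 in white control, 2.21 and 0.83 in white knockout, 3.32, 3.60 and 3.49 in brown control, and -0.61 and -0.58 in brown knockout. Its effects were -3.78 in white and -4.07 in brown fat, and their difference was -0.29 ± 0.63 with a 95% interval of -1.77 to 1.18. Cyp2f2, a cytochrome P450 that oxidises foreign compounds, had effects of -3.57 and -2.94. Alb, which encodes albumin, had -3.19 and -2.82, and Oxtr, the oxytocin receptor, -2.52 and -1.97. Slc6a13, a GABA transporter, had -1.81 and -1.83, so that its difference was -0.01 ± 0.57. Mest, an imprinted gene tied to fat cell expansion, had -3.15 in white and -2.16 in brown fat, and Timp4, an inhibitor of matrix metalloproteinases, -3.03 and -1.75. These genes were named for the size of the smaller of their 2 effects, so the effects are a description.

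The 8 genes that stood highest in both tissues by the same rule were Nsg2, Rgs1, Mzb1, Pacsin1, Slc38a1, Hcn3, Slc15a2 and Tox. Several are known from lymphocytes: Rgs1 is a brake on chemokine receptor signalling, Mzb1 a chaperone of antibody-making B cells and Tox a factor of T cell development. Rgs1 had levels of -3.24 and -0.86 in white control, 0.79 and 1.35 in white knockout, -3.14, -4.07 and -5.81 in brown control, and -2.97 and 0.32 in brown knockout. Its knockout arrays lay above the control arrays in both tissues, by a narrow margin in brown fat, and its difference of effects was -0.11 ± 1.79. Slc38a1, a glutamine transporter, differed by 0.04 ± 1.10 and Nsg2, a protein of neuronal vesicles, by 2.13 ± 1.88. The wide errors follow the spread between samples of a group. The median level of 29 T, B and NK cell markers was -2.14 and 0.13 in white control, -2.02 and 2.32 in white knockout, -2.16, -2.61 and -3.56 in brown control, and 0.18 and 1.89 in brown knockout. The marker median was above all controls in white arrays 2 to 4 and in both brown knockout samples, but in white array 1, where Rgs1 and Nsg2 were above all controls, it lay within them. The part of lymphocyte RNA in these results was not tested. In whole tissue, more cells of a type and more RNA per cell cannot be told apart.

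The agreement depended on which knockout samples were compared. Between the white and the brown sample of arrays 2 to 4, the correlation of effects across genes was 0.69 with the same sign for 77.0% of genes. White arrays 2 to 4 against brown array 1 gave 0.44 and 65.5%. White array 1 gave 0.14 and 58.7% against brown array 1, and -0.13 and 50.1% against brown arrays 2 to 4. Without the white knockout sample of arrays 2 to 4, the correlation over all genes was -0.03 in place of 0.54 and the share of the same sign 53.5% in place of 72.8%, and without white array 1 they were 0.67 and 75.2%. The 8 arrays on the 2 slides that held both genotypes of a tissue, 2 arrays of each group, gave a correlation of 0.51, a rho of 0.54 and the same sign for 71.9%.

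**Figure D2:**
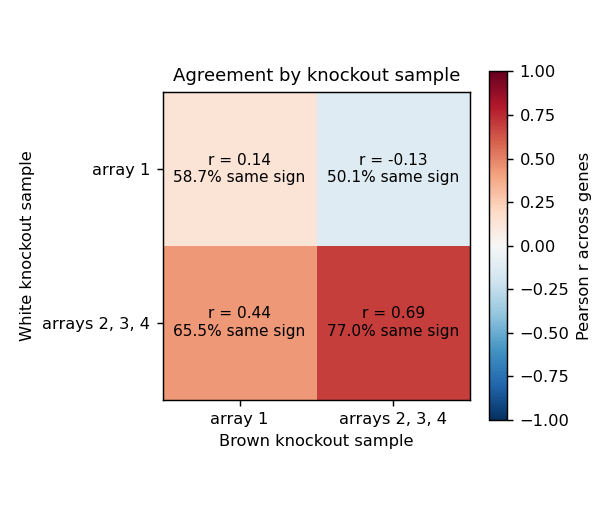
The 4 cells give the Pearson correlation across 15450 genes between the effects of 1 white knockout sample (rows) and 1 brown knockout sample (columns), each against its tissue's control mean, with the share of genes of the same sign. The correlation runs from -0.13 to 0.69 and is highest between the samples of arrays 2 to 4.

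No single gene passed the threshold for a difference between the tissues. With the 9 samples, limma called 0 of 15450 genes (0%) at a Benjamini-Hochberg adjusted p below 0.05, and the lowest adjusted p was 1. At an unadjusted p below 0.05 there were 402 genes, 93 with a higher effect in brown fat (0.602% of genes) and 309 with a lower effect (2%), against 772.5 that this threshold gives by itself over as many genes. This split was not stable: 1459 genes were higher and 47 lower without scaling of the arrays, 1332 and 778 without white knockout array 1, and 914 and 710 without knockout array 1 of both tissues. With the 16 arrays as separate samples, limma called 618 genes, 226 higher in brown (1.46%) and 392 lower (2.54%). This fit counts arrays that differ by less than the stated spot error as independent. Whether such arrays are repeat measurements of a sample was not given. Within the slides that held both genotypes, whose 8 arrays are among the 16, 125 of the 618 had an unadjusted p below 0.05 and no gene passed after adjustment. The median size of the difference over all genes was 0.33, below the median standard error of 0.50. Without the white knockout sample of arrays 2 to 4, 48 genes passed with the adjusted p of limma, 47 of them lower in brown fat; the white knockout group was then a single sample, assumed to vary like the others.

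Camk2a, the alpha subunit of calcium/calmodulin-dependent kinase II, had the smallest p of all genes. Its level was -4.22 and -3.71 in white control, -2.01 and -1.76 in white knockout, 2.06, 2.82 and 1.79 in brown control, and 1.27 and 0.85 in brown knockout. The knockout arrays lay above the controls in white and below them in brown fat, with no overlap in either. The difference of effects was -3.24 ± 0.52, with a 95% interval of -4.46 to -2.01 and an adjusted p of 1 with limma, and it was -3.21 within slides. A second, dimmer probe of Camk2a gave effects of -0.33 in white and -1.45 in brown fat, and a difference of -1.12 ± 0.80. The beta subunit Camk2b had a difference of -2.20 ± 0.65, with levels of -1.31 and -1.96, then -0.46 and -0.56 in white fat, and of 2.43, 3.06 and 2.02, then 1.99 and 0.86 in brown fat.

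Asb2, which targets proteins for breakdown in muscle, and Rragd, a GTPase that relays amino acid supply to the growth kinase mTORC1, showed the same pattern on a larger scale. Asb2 had levels of -1.84 and 0.03 in white control, 2.03 and 1.96 in white knockout, 4.04, 4.87 and 3.91 in brown control, and 3.68 and 2.52 in brown knockout, and a difference of -4.07 ± 0.91 (adjusted p = 1 with limma). Its arrays were apart in both tissues, in opposite directions. Rragd had -4.48 and -3.04, then -0.64 and -0.81 in white fat, and 2.98, 3.66 and 2.35, then 2.83 and 1.68 in brown fat. The brown groups overlapped for Rragd, and its difference was -3.78 ± 0.85, with -3.64 from its other probe. Pitpnc1, a carrier of phosphatidylinositol between membranes, had -1.17 and -1.01, then 0.18 and 0.57 in white fat, and 0.69, 0.81 and 0.24, then 0.47 and 0.08 in brown fat. White knockout thus reached the range of brown fat for Pitpnc1, and all 4 of its probes gave a negative difference, from -2.26 to -1.24. Tub, the gene of the tubby protein, differed by -2.38 ± 0.52, and its second probe gave -1.30 ± 0.28. Clgn, a chaperone of the endoplasmic reticulum, differed by -1.71 ± 0.37. Sall1, a zinc-finger factor of organ development, differed by -1.94 ± 0.43, and Terc, the RNA template of telomerase, by -1.91 ± 0.39. For Sall1 and Terc the arrays overlapped in both tissues. White control arrays 1 to 4 stood at -4.11, -4.22, -5.41 and -5.76 for Sall1 and at -2.91, -2.85, -4.39 and -4.71 for Terc. Arrays 1 and 2 shared a slide, and arrays 3 and 4 shared another. The part of the slide in this spread was not tested. Averaging arrays 1 with 4 and 2 with 3 hid the spread, so both errors are too small. Otud7a, a deubiquitinase, differed by -2.13 ± 0.44 and Pp2d1 by -1.27 ± 0.26. White control arrays 1 to 4 stood at -5.14, -5.21, -5.70 and -5.72 for Otud7a, a spread that the averaging also hid. Camk2a and these 9 genes each had an adjusted p of 1 with limma, and each kept a negative difference under all alternatives that gave it a value. The alternatives refit the arrays from which these genes were picked, so the kept sign is no independent support.

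Some of the smallest p-values belonged to dim genes. Cdh24, a cadherin, was well above background on 2 of 4 white control and 1 of 4 brown knockout arrays, so that its difference is poorly measured. Adgrb3, an adhesion receptor of synapses, was well above background on the 4 white knockout arrays and on none of the other 12, so that its level outside white knockout is only a bound. Lingo2, another membrane protein of neurons, was well above background on the 4 white knockout arrays and 2 brown control arrays. White knockout array 1 was highest for both, with levels of -2.92 for Adgrb3 and -3.0 for Lingo2, against -4.58 and -4.55 in arrays 2 to 4.

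Among the genes with a positive difference, Pdzk1ip1 had the smallest p. Pdzk1ip1, a small membrane protein that binds the scaffold PDZK1, had levels of 1.01 and 1.15 in white control, -1.35 and -1.30 in white knockout, -0.86, -0.70 and -0.34 in brown control, and -1.50 and -1.35 in brown knockout. Its arrays were lower in knockout without overlap in both tissues, and the knockout samples of the 2 tissues lay close together. The effect was -2.41 in white and -0.80 in brown fat, and the difference 1.61 ± 0.32, with a 95% interval of 0.86 to 2.36 and an adjusted p of 1 with limma. Pla2g4a, the cytosolic phospholipase that frees arachidonic acid, had -0.69 and -0.85, then -0.94 and -1.0 in white fat, and -2.69, -2.76 and -2.80, then -1.92 and -1.90 in brown fat. Here brown knockout lay above brown control and white knockout just below white control, and both probes gave the difference, 1.04 ± 0.25 and 1.08 ± 0.28. Cr1l, a brake on complement, differed by 1.21 ± 0.33, Maff, a small Maf transcription factor, by 1.24 ± 0.39, and Rflnb, a partner of filamin, by 1.28 ± 0.42. A second probe of Rflnb gave 0.65 ± 0.30. Lmbrd1, which exports cobalamin from lysosomes, differed by 0.81 ± 0.26, but its second probe gave 0.14 ± 0.26. Gpha2, a hormone subunit, differed by 1.50 ± 0.45. Its white control arrays 1 and 4, averaged as 1 sample, stood at 0.275 and -1.09, a gap that the error leaves out. Zfp518a, a zinc-finger protein, differed by 0.77 ± 0.25, a value that was -0.29 with normexp background correction. Ear1 and Ear10, which encode near-identical ribonucleases of eosinophils and are therefore uncertain as single genes, differed by 1.22 ± 0.34 and 1.33 ± 0.34.

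**Figure D3:**
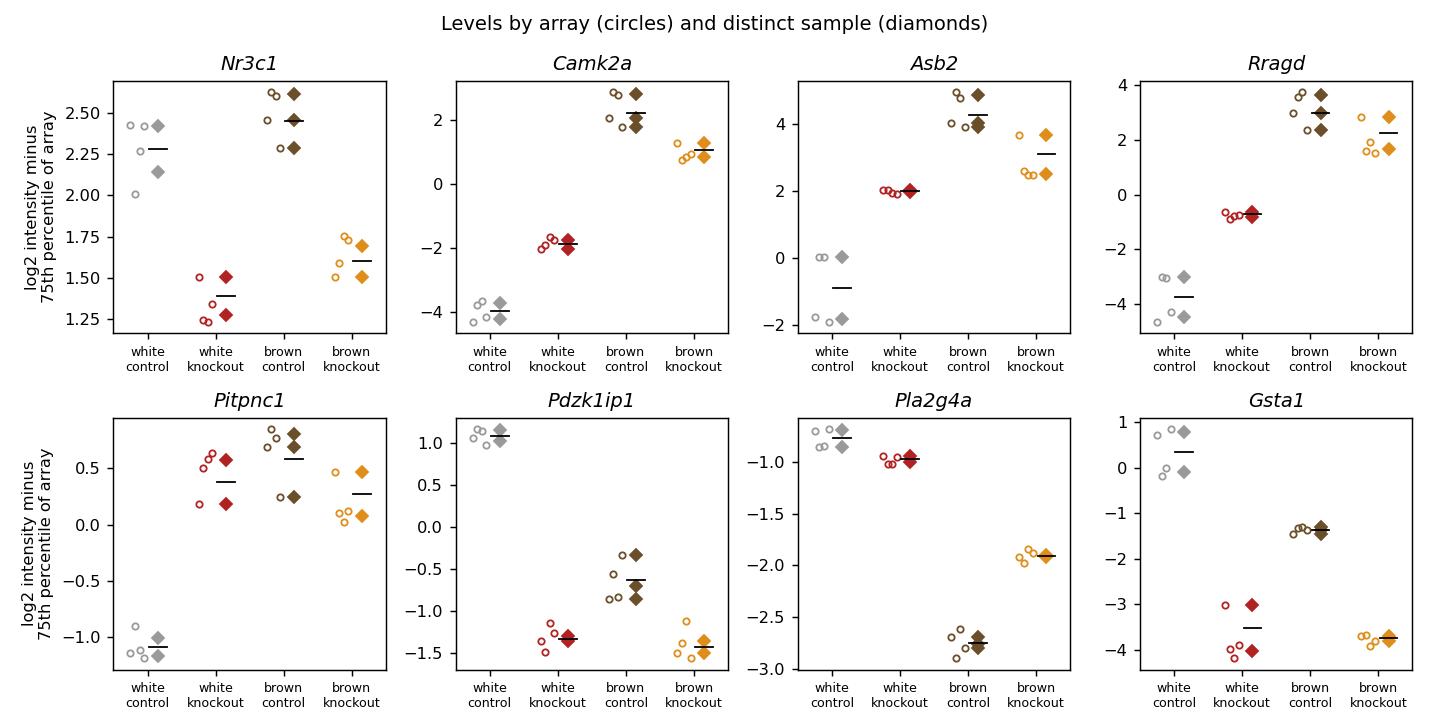
Each panel gives the level of a gene (log2 intensity minus the 75th percentile of its array) in the 4 groups. Circles are the 4 arrays, diamonds the samples after averaging, and the line is the mean of the diamonds. The vertical axes do not start at 0 and differ between panels. Nr3c1 drops alike in both tissues, Camk2a and Asb2 are higher in white and lower in brown knockout, and Pdzk1ip1 is at -1.50 to -1.30 in all 4 knockout samples.

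The sequence just before the annotated start is shown for 4 of these genes, chosen by hand from those with small p-values. Camk2a is not shown, and Pla2g4a, also looked up, held neither pattern below. Other genes with a smaller p than Asb2 and Rragd, such as Tub and Clgn, were not looked up. Each sequence is the 250 bases before the start, 5′ to 3′ on the gene's strand, from RefSeq on GRCm38.p6. Capitals mark matches on either strand to the receptor half-site AGAACA or to CAGCTG, an E-box letter pattern of factors such as those of muscle. The windows are chr11:107470721-107470970 (minus strand) for Pitpnc1, chr4:32982748-32982997 (plus) for Rragd, chr12:103356002-103356251 (minus) for Asb2 and chr4:115088458-115088707 (plus) for Pdzk1ip1.
Pitpnc1: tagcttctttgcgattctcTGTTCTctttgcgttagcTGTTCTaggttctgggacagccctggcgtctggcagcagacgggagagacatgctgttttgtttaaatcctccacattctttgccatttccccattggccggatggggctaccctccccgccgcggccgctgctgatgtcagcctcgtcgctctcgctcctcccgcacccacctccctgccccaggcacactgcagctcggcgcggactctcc
Rragd: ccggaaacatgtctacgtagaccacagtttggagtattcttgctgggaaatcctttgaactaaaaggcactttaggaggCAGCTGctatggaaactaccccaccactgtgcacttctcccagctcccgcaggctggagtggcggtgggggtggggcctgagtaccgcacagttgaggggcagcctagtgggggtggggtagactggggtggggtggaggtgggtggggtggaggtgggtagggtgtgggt
Asb2: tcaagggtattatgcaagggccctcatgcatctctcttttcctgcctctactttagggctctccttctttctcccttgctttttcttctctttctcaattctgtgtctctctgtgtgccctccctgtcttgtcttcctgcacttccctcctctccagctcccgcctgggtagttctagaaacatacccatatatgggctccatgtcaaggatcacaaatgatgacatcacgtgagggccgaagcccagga
Pdzk1ip1: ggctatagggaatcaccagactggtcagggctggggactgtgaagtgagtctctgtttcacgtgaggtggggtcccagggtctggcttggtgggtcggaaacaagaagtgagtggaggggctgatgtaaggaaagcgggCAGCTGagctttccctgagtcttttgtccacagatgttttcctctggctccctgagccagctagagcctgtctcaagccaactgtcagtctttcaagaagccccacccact
The letters AGAACA or their reverse complement TGTTCT stood 2 times in the Pitpnc1 window, beginning 231 and 213 bases before the start, and CAGCTG, which is its own reverse complement, stood 1 time in Rragd, at 171, and in Pdzk1ip1, at 111. Asb2 had neither. Over all 32817 promoter windows of this length, 16.1% held the half-site and 13% CAGCTG, and 3 held the full inverted repeat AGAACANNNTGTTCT. The windows of genes apart in both tissues held the half-site in 13.8% of 65 matched genes of opposite direction, 11.1% of 839 lower in both and 10.5% of 362 higher in both. In the same order, 12.3%, 13.2% and 8.56% held CAGCTG. These sets take 1 window per gene, while the shares over all windows count every start of 27025 genes, tested here or not. The sets and the whole are therefore not directly comparable. These matches describe letters in a short window and are not binding sites.

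Among the 83 genes with opposite directions and no overlap of arrays, the 6 with the largest smaller effect and a lower brown effect included, besides Asb2, Camk2a and Camk2b, the chemokine Cxcl14, the anchoring fibril collagen Col7a1 and Prap1. Cxcl14 had levels of -0.27 and -0.75, then 1.02 and 0.30 in white fat, and of 2.65, 3.55 and 2.45, then 1.97 and 1.81 in brown fat, and a difference of -2.16 ± 0.58. Col7a1 differed by -1.90 ± 0.53 and Prap1 by -2.50 ± 0.83. In the other direction the effects were small. Isg20, an interferon-induced ribonuclease, had -0.43 in white and 0.42 in brown fat, a difference of 0.85 ± 0.30. Ces2b, a carboxylesterase, differed by 1.02 ± 0.39, Nipsnap3b by 0.89 ± 0.32, Fam122b by 1.30 ± 0.52, Zfp930 by 0.65 ± 0.27 and Hnrnpr, an RNA-binding protein, by 0.61 ± 0.27. A second probe of Hnrnpr gave -0.70 ± 0.51. The adjusted p of limma was 1 for each of these 12 differences.

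Skeletal muscle genes had the lowest list median, and were the only list of 29 in which the effects mostly had opposite signs. The median difference over 37 genes was -1.35, with 34 below 0, against 0.02 and 7502 of 15450 over all genes, and only 7 genes had the same sign in both tissues, against 11246 of 15450. No member passed the adjusted threshold of limma with 9 samples. An unadjusted p below 0.05 was seen for 3 of 37, all lower (Tcap, Actn2 and Ckm), against 309 lower of 15450 genes. With 16 arrays 9 of 37 were called lower, against 392 of 15450. Tcap, which anchors titin in the muscle fibre, had levels of -2.10 and -1.66 in white control, -0.45 and -0.81 in white knockout, 8.51, 8.63 and 8.38 in brown control, and 8.35 and 7.12 in brown knockout, and a difference of -2.02 ± 0.55. Ckm, the muscle creatine kinase, had -5.02 and -4.13, then 0.47 and -3.35 in white fat, and 7.37, 7.77 and 6.58, then 6.71 and 5.71 in brown fat, and a difference of -4.17 ± 1.54. Myh7, the slow myosin heavy chain, differed by -4.20 ± 1.82, with white knockout array 1 at 0.88 and arrays 2 to 4 at -2.06. The median level of the list was -3.33 and -2.84 in white control, -2.99 and -2.01 in white knockout, 7.01, 7.56 and 6.58 in brown control, and 6.89 and 5.55 in brown knockout. The list median of the difference was 0.02 for array 1 of both tissues and -2.80 for arrays 2 to 4, and -0.72 without white knockout arrays 2 to 4 alone. Muscle fibres also express Camk2a, Camk2b, Asb2 and Rragd. In white arrays 2 to 4 these 4 genes and the list median were all above the white controls. In white array 1, Myh7 of the list stood at 0.88, with a white effect of 3.89 over both knockout samples. The 4 genes were above the controls in that array, as were Tcap and Ckm of the list, while the list's median effect was -0.11. The part of muscle RNA in their differences was not tested.

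Markers of T, B and NK cells had the highest median difference, 2.03 over 29 genes, with 25 above 0. The effects had the same sign for 28 of 29, with medians of 1.11 in white and 3.41 in brown fat. Il7r, the receptor of interleukin 7 on T cells, had levels of -2.15 and -0.11 in white control, -1.77 and 1.60 in white knockout, -2.53, -4.50 and -5.32 in brown control, and 0.90 and 1.81 in brown knockout. Both brown knockout samples lay above the brown controls, while white array 1 lay among the white controls. The difference was 4.43 ± 1.80, with a 95% interval of 0.17 to 8.68 and an adjusted p of 1 with limma, and it was 2.14 from a second probe. Cd3g, part of the T cell receptor complex, differed by 3.32 ± 1.91, Cd8a by 3.34 and Lef1, a factor of young T cells, by 4.33, whereas Cd4 differed by -0.56 and the granzyme Gzma by -0.22. By sample, the median effect was -0.75 in white array 1, 2.98 in white arrays 2 to 4, 2.61 in brown array 1 and 4.31 in brown arrays 2 to 4. The median of the differences per gene was 2.70 for array 1 of both tissues and 1.07 for arrays 2 to 4, and the list median was 2.97 within slides. On leaving out 1 sample it ran from 0.073, without white knockout array 1, to 3.80, without white knockout arrays 2 to 4.

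Proliferation genes followed a related pattern. All 30 had the same sign in both tissues, and 28 had a difference above 0, with a median of 0.70. Cdk1, the kinase that drives mitosis, had effects of 0.90 in white and 2.45 in brown fat, Top2a, which untangles replicated DNA, 1.06 and 2.72, and Mki67 1.44 and 2.23. The list's difference was 1.81 for array 1 of both tissues and -0.34 for arrays 2 to 4, so its sign depended on the sample; it was -0.80 without white knockout array 1 and 2.18 without white arrays 2 to 4. Macrophage markers had a median difference of 0.20 over 28 genes, with 15 above 0; it was -0.42 without white knockout array 1, -0.35 without brown knockout arrays 2 to 4 and -0.13 without brown control array 4. Granulocyte and mast cell markers had -0.11 over 13, and from -0.68 to 0.18 on leaving out 1 sample.

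**Figure D4:**
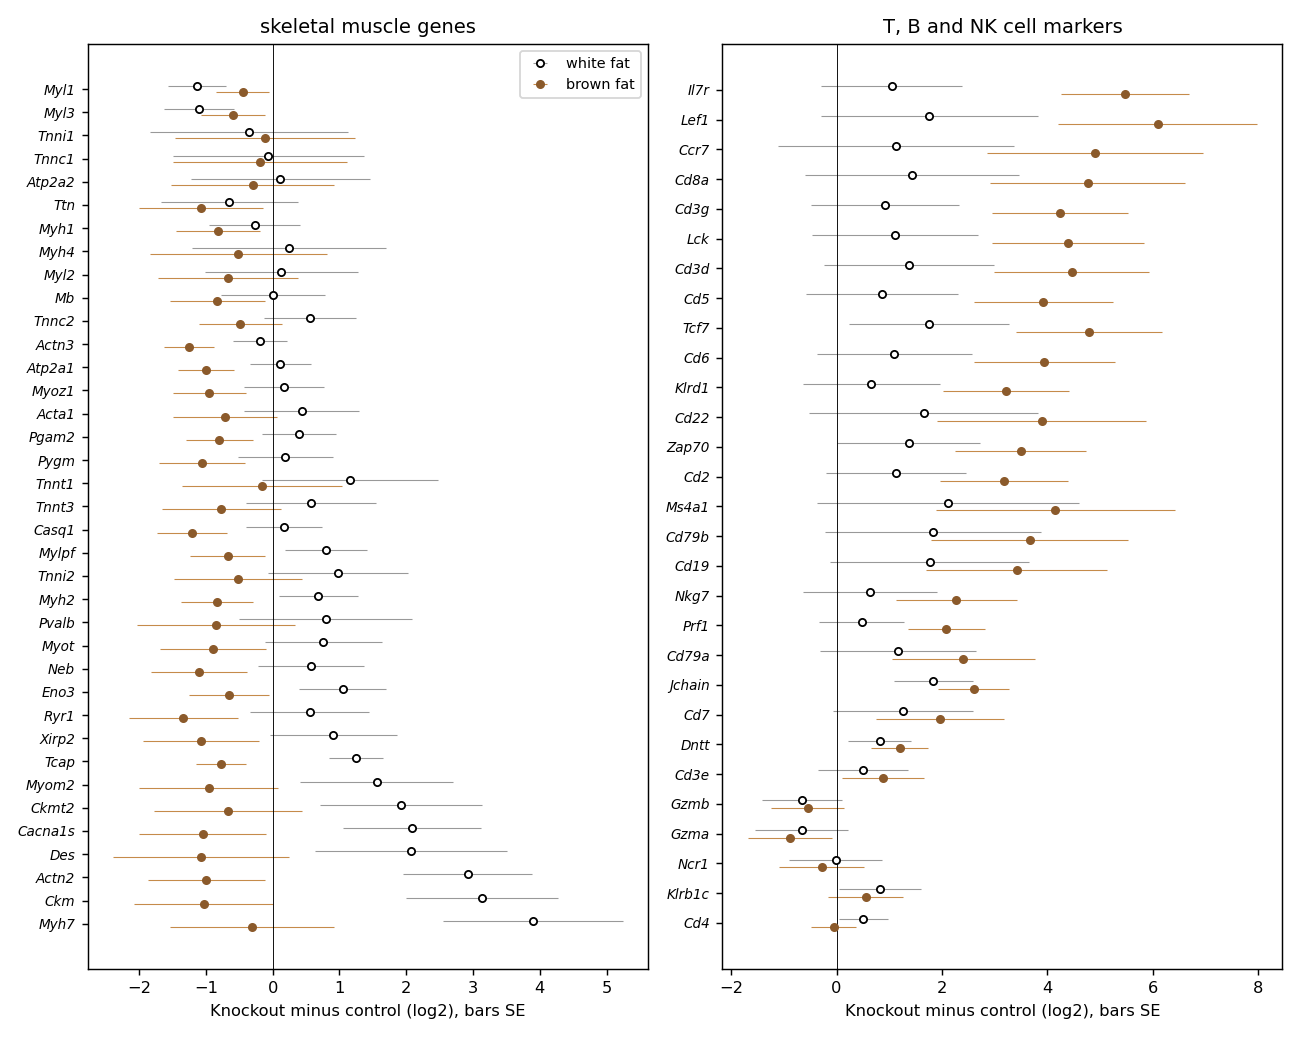
For skeletal muscle genes (left, 37 genes) and T, B and NK cell markers (right, 29 genes), open points give the knockout effect in white fat and brown points that in brown fat (log2, bars SE), ordered by the difference. Most muscle genes lie to the right of 0 in white and to the left in brown fat, and most lymphocyte markers lie right of 0 in both tissues and further right in brown fat.

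Fatty acid synthesis genes had negative median effects in both tissues, and none passed the adjusted threshold. The sign was the same in both for 22 of 22 genes that build fatty acids from acetyl-CoA, with median effects of -1.66 in white and -0.91 in brown fat, and the difference was above 0 for 20 of 22 with a median of 0.68. Acly, which makes cytosolic acetyl-CoA, had -2.65 and -1.88, Acaca, the first committed enzyme, -2.06 and -1.12, Elovl6, an elongase, -2.66 and -1.26, and Fasn, the synthase itself, -0.34 and -0.51. Fads2, a desaturase, had levels of 1.38 and 1.22 in white control, 0.36 and -0.46 in white knockout, -0.24, -0.57 and 0.23 in brown control, and -0.55 and -0.69 in brown knockout. Its white groups did not overlap, its brown groups did, and the difference was 0.92 ± 0.49. By sample the list's effect was -1.27 in white array 1, -1.76 in white arrays 2 to 4, -1.21 in brown array 1 and -0.39 in brown arrays 2 to 4. The median of the differences per gene was 0.20 for array 1 and 1.19 for arrays 2 to 4, and it was above 0 in all alternatives run.

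Cholesterol synthesis followed suit, with the same sign in both tissues for 25 of 25 genes, medians of -1.05 in white and -0.73 in brown fat, and a difference above 0 for 21, with a median of 0.33. Sc5d, an enzyme near the end of the pathway, had effects of -1.67 and -0.81, a difference of 0.86 ± 0.40. Srebf2, the pathway's transcription factor, had positive effects in both tissues, 0.56 and 0.59. Triglyceride synthesis and uptake had a median difference of 0.50, with 18 of 21 above 0. Mogat2, which adds a fatty acid to monoacylglycerol, had levels of 3.72 and 3.62, then 1.60 and 1.84 in white fat, and 0.24, 0.36 and 0.60, then -0.92 and -0.29 in brown fat, a difference of 0.95 ± 0.37 (adjusted p = 1 with limma). Lipolysis and lipid droplet genes had a median of 0.66, with 16 of 20 above 0; among them the main lipases Pnpla2 and Lipe differed by 0.59 and 0.65. Fatty acid oxidation had a median of 0.24, with 20 of 25 above 0. Without white knockout arrays 2 to 4, these medians were -0.042 for triglyceride synthesis, -0.11 for lipolysis and -0.27 for fatty acid oxidation, which was also -0.11 without brown knockout array 1. The cholesterol median ran from 0.13, without brown knockout arrays 2 to 4, to 0.62, without brown knockout array 1.

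Adipocyte identity genes and adipokines had a median difference of 0.71, with 22 of 24 above 0. Retn, the adipokine resistin, had levels of 6.96 and 6.54 in white control, 4.84 and 3.88 in white knockout, 5.62, 5.59 and 5.84 in brown control, and 4.10 and 4.79 in brown knockout. Its groups did not overlap in either tissue, and the difference was 1.15 ± 0.52. Lep, the satiety hormone leptin, had effects of -2.13 and -0.97, a difference of 1.16 ± 0.59. Adipoq, the adipokine adiponectin, differed by 0.42, Pparg, the master factor of fat cells, by 0.75, and Fabp4, a fatty acid carrier, by -0.15. The list median was 0.02 for array 1 of both tissues and 1.41 for arrays 2 to 4, where the list's effect was -1.77 in white and -0.54 in brown fat, and it was -0.18 without white arrays 2 to 4. Mesothelial markers, which belong to the lining around visceral fat, had a median of 1.03 with 16 of 17 above 0, and of -0.079 for array 1 and 2.28 for arrays 2 to 4; their median level was -1.76 in white knockout arrays 2 to 4, against 2.01, 1.06 and 1.79 in the other white samples. The difference of the adipocyte list moved with theirs, and their part in it was not tested.

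Thermogenic genes showed no common direction. The difference was above 0 for 13 of 25 with a median of 0.17, and the effects had the same sign for 13. The median ran from -0.30, without brown control arrays 2 and 3, to 0.67, without brown control array 4. Ucp1 had effects of 0.02 in white and 1.12 in brown fat, Cidea, a lipid droplet protein of brown fat, -1.18 and 0.81, and Ppargc1a, the coactivator of mitochondrial biogenesis, 0.18 and -0.83. Esrra, a nuclear receptor of mitochondrial genes, differed by -0.83 ± 0.37 and was the 1 member of 25 called with 16 arrays, lower in brown fat, against 392 of 15450 genes. Respiratory chain subunits had a median of -0.12 over 57 genes with 39 below 0 and the same sign in both tissues for 54; the median turned positive with quantile normalization, with normexp background correction and without scaling, and it was 0.068 without white knockout array 1 and 0.21 without brown knockout arrays 2 to 4. Ribosomal proteins had -0.18 over 35, with 27 below 0, and turned under the same 3 alternatives and without white knockout arrays 2 to 4, where it was 0.33.

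Genes that glucocorticoids are known to induce did not share a difference. Over 30 of them the median was 0.20 (-0.042 without white knockout arrays 2 to 4), with 20 above 0. None had an unadjusted p below 0.05 with 9 samples, against 402 of 15450 genes. With 16 arrays 1, Dusp1, was called higher in brown fat, against 226 of 15450. Dusp1, a phosphatase that switches off stress kinases, had levels of 1.92 and 1.83 in white control, 0.71 and 0.49 in white knockout, 1.76, 2.18 and 2.24 in brown control, and 1.58 and 1.49 in brown knockout. It was lower in knockout without overlap in both tissues, and its difference was 0.75 ± 0.32 with an adjusted p of 1 by limma. Sult1a1, a sulfotransferase, had effects of -1.98 and -1.35, Lpin1, which makes diacylglycerol, -0.96 and -0.55, and Angptl4, an inhibitor of lipoprotein lipase, -1.0 and -0.50. Fkbp5, a chaperone that feeds back on the receptor, had effects of 1.74 in white and 1.79 in brown fat and a difference of 0.06 ± 1.41, with overlapping white groups. Its other 2 probes gave smaller effects, 0.67 and 0.43 in white and 0.34 and 0.11 in brown fat. Tsc22d3, a mediator of anti-inflammatory action, had 0.78 and 0.05, and Per1, a clock gene, 0.69 and 0.99. Fbxo32, a ubiquitin ligase of muscle wasting, had 1.46 and -0.91, the sign pattern of the muscle list.

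Of 17 corticosteroid receptors and steroid-metabolising enzymes, 10 had a difference above 0, with a median of 0.05. Nr3c2, the mineralocorticoid receptor, had levels of -3.93 and -3.86, then -3.24 and -3.71 in white fat, and -3.50, -3.71 and -3.65, then -4.09 and -3.90 in brown fat. Its difference was -0.80 ± 0.32 (adjusted p = 1 with limma), and the arrays overlapped in both tissues. White control arrays 1 to 4 stood at -3.16, -3.426, -4.295 and -4.695. Averaging arrays 1 with 4 and 2 with 3 hid this spread, so the error is too small. Hsd11b1, which regenerates active glucocorticoid, had effects of -2.19 in white and -1.40 in brown fat, a difference of 0.79 ± 0.69. Akr1c18, a progesterone-metabolising reductase, differed by 2.07 ± 0.91, with brown knockout array 1 at a level of 0.07 and arrays 2 to 4 at -2.22. The chaperones Hsp90aa1, Hsp90ab1 and Fkbp4 differed by 0.17, -0.13 and -0.13, each within its standard error.

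Among the remaining lists, glutathione transferases and xenobiotic enzymes had a median difference of 0.42, with 21 of 28 above 0, and 12 of the 28 were apart in the same direction in both tissues, against 1506 of 15450 among all genes. Gsta1 had levels of 0.78 and -0.09 in white control, -3.0 and -4.02 in white knockout, -1.46, -1.30 and -1.36 in brown control, and -3.69 and -3.79 in brown knockout. The groups did not overlap in either tissue, and the difference was 1.49 ± 0.54 (adjusted p = 1 with limma); as Gsta1 is close in sequence to Gsta2, its probe may not tell the genes apart. Extracellular matrix genes had the same sign in both tissues for 27 of 28, and 14 were apart in the same direction, the largest share of any list. Col1a1, Col3a1 and Col6a1 had effects of -0.91, -1.03 and -1.24 in white and -0.87, -0.70 and -0.71 in brown fat. The median difference of the list was 0.25, and it was -0.37 for array 1 and 1.12 for arrays 2 to 4. Without white knockout arrays 2 to 4 it was -0.33, and that of the glutathione list -0.28. Interferon-stimulated genes had a median of 0.48, with 23 of 24 above 0, and of -0.0063 without white control arrays 1 and 4; Irf7, their amplifier, had -0.78 in white and 0.31 in brown fat. Immediate early genes had a median of 0.20, which was -0.080 without white knockout array 1 and 0.67 without white knockout arrays 2 to 4, and Fos, a rapid response factor, differed by 1.54 ± 0.63. Neuronal and Schwann cell genes had a median of -0.28 over 21, with -1.02 for array 1 and 0.32 for arrays 2 to 4, and it was 0.48 without white knockout array 1; Dbh, which makes noradrenaline, differed by -1.72 ± 0.66 and the neuronal tubulin Tubb3 by -1.85 ± 0.78, with white knockout array 1 the highest sample for both.

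Endothelial markers had a median difference of 0.21, with 17 of 22 above 0. Pecam1, a junction protein and the member with the smallest p, differed by 0.79 ± 0.31, and Eng, the next by p, by -0.46 ± 0.32. Adipocyte progenitor markers had 0.46 with 17 of 23 above 0, insulin signalling and glucose uptake 0.16 with 12 of 21, cytokines and chemokines 0.39 with 15 of 24, and acute phase and liver-type transcripts 0.28 with 13 of 22. Circadian clock genes had 0.06 over 18 and erythroid genes -0.10 over 9, and on leaving out 1 sample they ran from -0.47 to 0.50 and from -0.21 to 0.15. Without white knockout arrays 2 to 4, the endothelial, progenitor, insulin and acute phase medians were -0.21, -0.0065, -0.25 and -0.24. The cytokine median was -0.33 without white knockout array 1, -0.13 without brown knockout arrays 2 to 4 and 0.97 without white knockout arrays 2 to 4. The endothelial median was also -0.028 without brown knockout array 1. No gene of any list passed the adjusted threshold of limma with 9 samples.

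**Figure D5:**
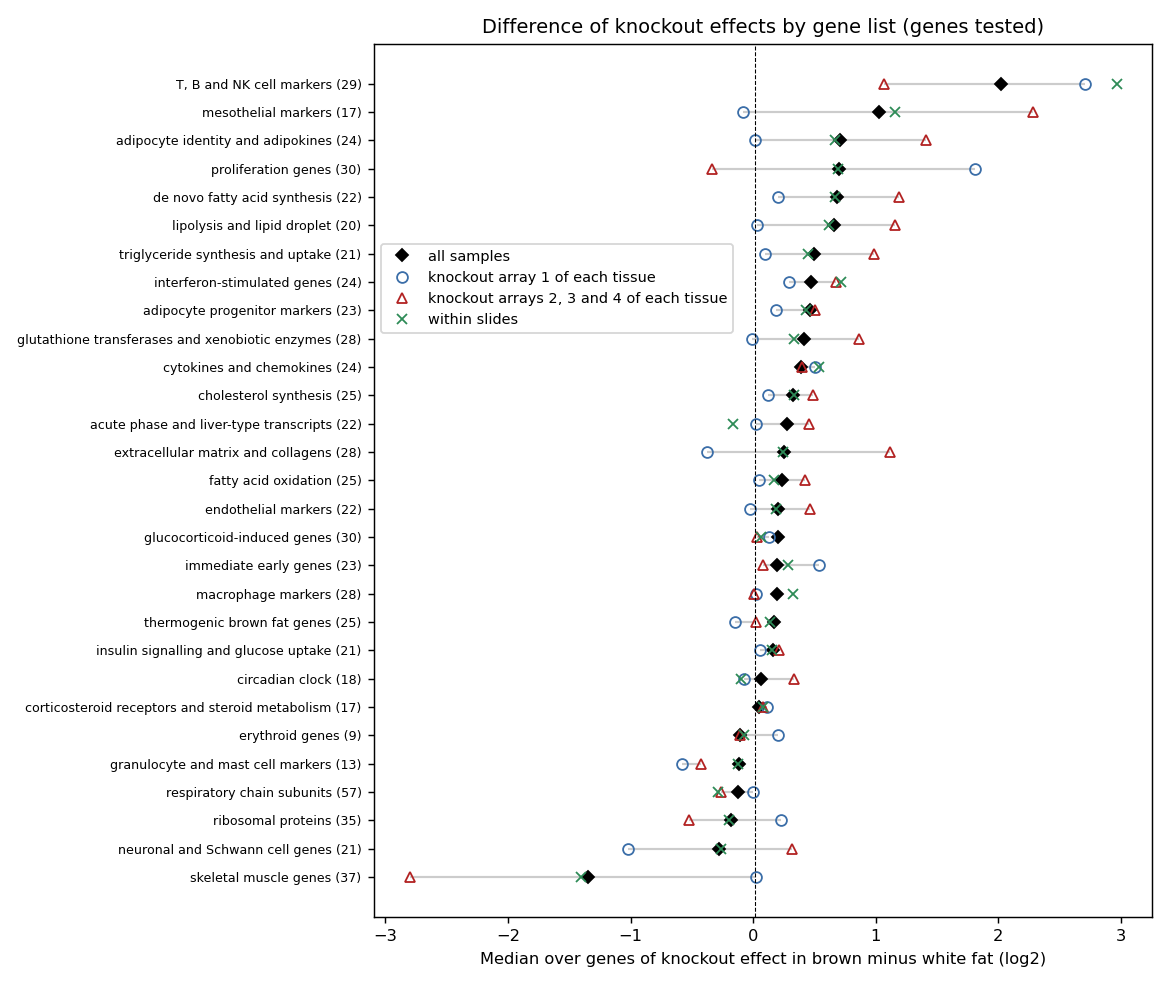
Median over the tested genes of each list (number in brackets) of the knockout effect in brown minus white fat (log2): black diamonds use all 9 samples, blue circles the knockout array 1 of each tissue, red triangles knockout arrays 2 to 4 of each tissue and green crosses the 2 slides that hold both genotypes of a tissue. The dashed line is the median of all 15450 genes, 0.02. The list medians run from -1.35 for skeletal muscle to 2.03 for T, B and NK cell markers. The circle and the triangle are far apart for the muscle, mesothelial, proliferation, matrix and T, B and NK cell lists, among others.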

How the data were processed

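RNA was measured on 16 Agilent arrays of 1 colour. Per the file headers, Agilent Feature Extraction version 12.0.0.7 read the images. The deposited scanner files give a linear, background-subtracted intensity for each spot, not scaled to other arrays. In the value table that the authors deposited, each of 41174 probes has its mean intensity per array, also unscaled.

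Values were log2 processed intensity minus each array's 75th percentile, without control and outlier spots; no spot was saturated. Accessions named 28223 probes through RefSeq on GRCm38.p6, giving 19096 symbols; 12951 stayed unnamed. A probe was kept if some group had it well above background on all 4 of its arrays, and the brightest stood for its gene; 20 genes lacking a sample value were left out. Arrays of a group whose difference over stated error had a median absolute deviation below 1, over bright probes only, were averaged. Limma 3.58.1 in R 4.3.3 fitted 4 group means with 5 residual degrees of freedom; p-values were adjusted by Benjamini-Hochberg over 15450 genes at 0.05. The p-values measure the spread between these samples, and the number of arrays limits the precision. The fit was tested on simulated data. Normexp used the median signal, as the files hold no mean signal.

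Genes were named by rule: Nr3c1, the 10 smallest p each way among genes measured in all groups and the 5 smallest in all, the 8 largest shared effects each way and the 6 largest opposite ones without overlap of arrays, the 6 each way from the 16-array fit, and the 3 smallest p and all glucocorticoid-list members from 29 lists; other list members were chosen by their known role, after their values were seen. The lists, the rules and the averaging were chosen with earlier results of these data known. Alternatives were the separate arrays, background, scaling, filter, probe choice, prior, slide, replicate block and left-out samples. Some list members are not reported here by name.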

Additional observations from a re-analysis of the deposited data

Results flagged for a closer look

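In 83 of the 15450 genes every knockout array moved beyond every control array in both tissues, in opposite directions, and 12 of them are given here. The 4 arrays of a group were counted here as only 2 or 3 samples, so this separation is a description and not a test. Whether the averaged arrays are repeats of a sample was not given. The knockout effect in brown minus white fat (log2) was -4.07 for Asb2, -3.24 for Camk2a, -2.20 for Camk2b, -2.16 for Cxcl14, -1.90 for Col7a1 and -2.50 for Prap1, which were lower in brown and higher in white knockout. It was 1.30 for Fam122b, 1.02 for Ces2b, 0.85 for Isg20, 0.89 for Nipsnap3b, 0.61 for Hnrnpr and 0.65 for Zfp930, which were higher in brown and lower in white knockout. The difference itself was tested with limma and had an adjusted p of 1 for each of the 12. They were picked as the largest of the 83 such genes (0.537% of 15450), 6 in each direction. Groups counted as 2 or 3 samples were too small to look for a single sample far from the others.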

How the results depend on the processing

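The depth limit here is signal over background: of 4 equal groups of genes by brightness, the dimmest had an unadjusted p below 0.05 in 5.41% and the brightest in 0.984%. No gene passed after adjustment in any alternative except 3: the 16 separate arrays (618), the replicate block on 16 arrays (698) and the fit without white knockout arrays 2 to 4 (48). Genes at an unadjusted p below 0.05 numbered 402. They were 3660 with 16 arrays and 1506 in the authors' unscaled table (1459 higher and 47 lower in brown fat). A slide block, fitted to the 16 separate arrays, gave 907. Its correlation, share of the same sign and median difference equalled those within slides. With the white controls as 1 sample, an alternative chosen after seeing the data, there were 143. Leaving out 1 sample gave 0 to 48 genes past the threshold, 182 to 2110 genes at an unadjusted p below 0.05, a correlation of effects of -0.029 to 0.67 and the same sign for 53.5% to 75.2%. Using only array 1 of both knockout groups gave 1240 genes, 0.14 and 58.7%, and using only arrays 2 to 4 gave 1624 genes, 0.69 and 77.0%. With arrays left unscaled, the median difference over all genes was 0.64 in place of 0.02 and the same sign was seen for 51.4%; normexp moved the median to -0.12. Of 62 genes followed, named from the same arrays that the alternatives refit, 57 kept the sign of the difference in every alternative. The others were Zfp518a (-0.29) and Fam122b (-0.21) with normexp, Hnrnpr (-0.041) with the mean of all probes, Gpm6a (-0.079) with array 1 alone, and Nr3c1, which was -0.17 with array 1 alone and ran from -0.10 to 0.18 on leaving out 1 sample, below 0 in 4 of these fits. The same-numbered arrays of the 2 tissues did not deviate together in the controls (correlations of -0.129, 0.054, 0.051 and 0.181), though they did in knockout (0.295 to 0.570), so the numbers were not taken as pairs; a replicate block gave 4814 genes at an unadjusted p below 0.05 with 16 arrays and 642 with averaged samples. The causes of these changes were not tested.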

Other observations

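Probes without a gene name were tested apart. Of 6591 such probes, limma called 0 for a difference between the tissues with 9 samples, 215 had an unadjusted p below 0.05, 42 higher and 173 lower in brown fat, and 121 were called with 16 separate arrays, 37 higher and 84 lower. Their effects in white and brown fat correlated at 0.53 across probes, with the same sign for 71.5%. In the 16-array fit of named genes, Lct, the gene of lactase, and Rbfox1, a splicing factor of muscle and neurons, were among the lowest p-values with a lower effect in brown fat; Lct was well above background on 1 of 4 brown control arrays and Rbfox1 on 1 of 4 white control arrays, so their differences are poorly measured. Dnph1, a nucleotide hydrolase, differed by -1.58 ± 0.39, with levels of -2.86 and -2.87, then -1.26 and -1.50 in white fat, and -1.53, -1.18 and -1.66, then -1.25 and -1.87 in brown fat. White knockout lay in the range of brown fat for this gene.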
